A study of Caenorhabditis elegans with 2 samples.

Results

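Autosomal peaks of the T-box factor TBX-2 that lie in the promoter of 1 protein-coding gene and no other are described here, in whole L3 larvae of Caenorhabditis elegans. Chromatin immunoprecipitation followed by sequencing (ChIP-seq) with an antibody against green fluorescent protein (GFP) was done on hermaphrodites of strain OP159, whose genotype is given as unc-119(ed3) III and wgIs159. Their transgene codes for TBX-2 with GFP and FLAG at its C terminus, and larvae were collected 48 h after starved, bleach-synchronized L1 animals were set to grow. All data belong to 1 group of 2 biological replicates, so there is no comparison between conditions, and an untagged strain or another stage was not analysed here. Every cell of the animal contributed chromatin, so no peak can be placed in a cell type, and the transgene adds copies of the tbx-2 region to the endogenous gene.

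A peak was taken when its summit lay on chromosome I, II, III, IV or V, no more than 1000 bp before and 200 bp past a transcript start of exactly 1 protein-coding gene, and more than 200 bp from every tRNA, snoRNA and snRNA gene. This gave 410 peaks of the 1631 that passed the authors' threshold on the irreproducible discovery rate (IDR), which scores how well the ranks of replicates match, and 33.5% of the 1223 autosomal ones. The 410 peaks belong to 382 genes. The signal value is the authors' peak caller's own score of each peak, and it is used here only to rank and describe peaks within a list. The thresholded list holds the strongest entries of a ranked list of 30000 from the pooled replicates, and read depth is unknown because no list holds counts.

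TBX-2 is the worm relative of vertebrate TBX2 and TBX3. Factors of this family bind DNA through the T-box domain, most often at sites that hold the letters GGTGTG, and many of them repress transcription. In the worm TBX-2 is known for its role in pharyngeal muscle and for working with the SUMO conjugation machinery. A promoter is the stretch around a transcript start where transcription is set up, and many C. elegans messages are trans-spliced to a leader, so that the annotated 5′ end often lies downstream of the place where the polymerase began. Distances below are to annotated starts.

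The sequences around 8 summits are shown first, because the results below turn on short words that recur in them. Each is the summit with 100 bp on either side, read 5′ to 3′ on the strand of the gene, from the RefSeq copy of WBcel235, whose coordinates are those of the authors' build ce11. Capitals mark a T-box core, GGTGTG, and 3 words described further on, on either strand: word A is GAGACGC, word B is CTGGCGC or CTGACGC, and word C is GAAACGC. The windows were chosen, from strong peaks and tbx-2, for holding such a word: all 8 do, against 37.1% of the 410 windows for words A to C, and strong peaks such as cdc-48.1, rpl-35, cox-5A and his-37 hold none of those words.
tbx-2, chrIII:5136305-5136505, minus strand: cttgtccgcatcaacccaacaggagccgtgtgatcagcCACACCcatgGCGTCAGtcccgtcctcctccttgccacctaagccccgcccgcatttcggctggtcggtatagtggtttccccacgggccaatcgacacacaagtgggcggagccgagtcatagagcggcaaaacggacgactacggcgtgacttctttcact
dnj-9, chrII:4851733-4851933, plus strand: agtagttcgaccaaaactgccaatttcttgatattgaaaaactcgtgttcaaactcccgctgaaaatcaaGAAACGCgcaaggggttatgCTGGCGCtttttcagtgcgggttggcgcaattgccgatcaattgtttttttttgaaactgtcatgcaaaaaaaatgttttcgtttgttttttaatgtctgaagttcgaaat
pcn-1, chrIV:4049614-4049814, minus strand: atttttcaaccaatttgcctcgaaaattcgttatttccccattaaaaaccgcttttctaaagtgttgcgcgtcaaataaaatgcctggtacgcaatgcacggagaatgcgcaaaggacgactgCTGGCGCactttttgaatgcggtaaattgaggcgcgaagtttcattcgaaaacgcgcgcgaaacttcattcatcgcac
ntl-11, chrIV:15471512-15471712, minus strand: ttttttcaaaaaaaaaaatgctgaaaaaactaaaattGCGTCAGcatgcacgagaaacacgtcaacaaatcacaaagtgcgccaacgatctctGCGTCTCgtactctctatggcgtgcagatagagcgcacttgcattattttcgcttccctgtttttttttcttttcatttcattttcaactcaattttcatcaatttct
C34C12.8, chrIII:3460165-3460365, plus strand: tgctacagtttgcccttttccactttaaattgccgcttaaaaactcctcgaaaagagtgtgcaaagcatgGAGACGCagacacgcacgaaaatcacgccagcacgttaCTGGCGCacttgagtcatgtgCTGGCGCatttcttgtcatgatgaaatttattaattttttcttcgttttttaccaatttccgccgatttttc
zfp-1, chrIII:8801968-8802168, plus strand: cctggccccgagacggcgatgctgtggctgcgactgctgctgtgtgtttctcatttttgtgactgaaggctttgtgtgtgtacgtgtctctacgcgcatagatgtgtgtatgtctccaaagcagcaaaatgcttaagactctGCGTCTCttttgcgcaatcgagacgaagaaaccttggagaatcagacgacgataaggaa
Y39B6A.43, chrV:18967744-18967944, minus strand: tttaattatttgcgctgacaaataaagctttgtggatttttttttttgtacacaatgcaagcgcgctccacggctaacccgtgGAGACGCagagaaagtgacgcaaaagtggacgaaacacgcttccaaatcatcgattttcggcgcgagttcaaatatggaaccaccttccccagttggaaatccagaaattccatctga
cbp-1, chrIII:9765520-9765720, plus strand: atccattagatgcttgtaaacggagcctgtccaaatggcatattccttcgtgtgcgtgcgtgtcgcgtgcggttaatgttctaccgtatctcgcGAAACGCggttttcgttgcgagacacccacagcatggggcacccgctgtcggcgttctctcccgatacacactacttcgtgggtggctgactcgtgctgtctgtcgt

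The strongest peaks stood upstream of genes for ribosomal proteins, protein quality control, respiration and chromatin. At rpl-3, a gene of the large ribosomal subunit, the peak scored 1583 for the pool, 881 in replicate 1 and 707 in replicate 2. Its summit lay 277 bp upstream of the start. At cdc-48.1, an AAA ATPase that unfolds ubiquitinated proteins, the peak at chrII:10563403-10563747 had values of 907, 509 and 398 in the same order, 170 bp upstream. At rpl-35, another large-subunit gene, they were 811, 454 and 355 at chrIII:7854532-7854852, 454 bp upstream. The signal value at rpl-3 was thus the highest of the 410 in the pooled list and in both replicates.

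The next strongest peaks were found at a subunit of cytochrome c oxidase, at a histone and at a histone acetyltransferase. At cox-5A the peak at chrIII:12905044-12905354 had 741 for the pool, 386 in replicate 1 and 351 in replicate 2, with its summit 291 bp upstream. At his-37, a gene for histone H4, the values were 669, 341 and 329, and the summit stood 99 bp upstream. The worm has many near-identical H4 genes, and how the authors treated reads that match several copies is not given in the sources used here, so this peak is less certain. At cbp-1, the CBP/p300 histone acetyltransferase, the peak at chrIII:9765441-9765821 had 665, 389 and 276. Its summit lay 889 bp upstream, the farthest of the 20 strongest peaks found in both replicates.

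The rest of those 20 peaks had pooled signal values from 571 down to 367. Some of these genes act in RNA metabolism. The Integrator subunit gene ints-4 had 499.7 for the pool, 239.9 in replicate 1 and 263 in replicate 2. The CCR4-NOT subunit gene ntl-11 had 475, 262 and 211 in the same order. The summit at ints-4, 49 bp inside the gene, was the only one of the 20 that was not upstream. The other 19 were, with a median of 235 bp over all 20.

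Of the other genes in that group, pcn-1 codes for the sliding clamp of DNA replication, and lin-9 for a subunit of the DREAM complex, which represses cell cycle and germline genes. The peak at pcn-1 had 442 for the pool, 239 in replicate 1 and 202 in replicate 2, and that at lin-9 had 435, 225 and 209. Chaperone functions were represented by dnj-9, a J-domain protein, with 440.8, 234 and 204, by the cytosolic HSP70 gene hsp-1 with 404, 250.4 and 159.8, and by C34C12.8, annotated as a mitochondrial GrpE, with 385, 192 and 189.8. Other genes of the 20 were eelo-2, annotated with a peptidase domain, the translation initiation gene eif-3.C, tos-1, the kinase gene mrck-1, the ubiquitin ligase gene wwp-1, and rpl-24.2, which RefSeq annotates as a ribosome biogenesis protein. They had pooled values of 571, 433, 431, 374, 367 and 374. In 17 of the 20 replicate 1 had the higher value, and ints-4, eelo-2 and rpl-24.2 went the other way.

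The peak at tbx-2 itself belonged to the set. At chrIII:5136268-5136518 it scored 332 for the pool, 194 in replicate 1 and 146 in replicate 2, with its summit 109 bp upstream. Its window, printed above, held a T-box core 59.5 bp and word B 49 bp upstream of the summit, measured centre to centre. The extra copies of this region in the transgene and this signal cannot be told apart from binding at the endogenous gene.

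Most of the 410 peaks were much weaker than these. The signal value in the pooled list ran from 91.0 to 1583 with a median of 136, and 41 peaks exceeded 300 while 237 were under 150. The median was 77.4 in replicate 1, with an entry for 409 peaks, and 65.6 in replicate 2, with an entry for all 410. Replicate 1 had the higher value at 305 of those 409 peaks, with a median ratio of 1.21, and across all thresholded peaks the median ratio was 1.18. Values were not normalized between the lists, so this ratio may be one of scale.

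Both replicates placed most of the peaks among their own strongest. When each replicate's list was limited to its top 1631 entries, 284 of the 410 summits, 69.3% (exact 95% interval 64.6 to 73.7%), had a summit within 100 bp in both. The share over all thresholded entries was 70.6%, and over the autosomal ones 68.6%, so the share here is near the background. A further 66 summits were matched in replicate 1 alone, 52 in replicate 2 alone and 8 in neither. Agreement followed strength: of the 103 strongest peaks 100 were in both, and of the 103 weakest 15. The Spearman rho of the 2 replicates' values across peaks was 0.691 (n = 409), as a description only, since all peaks were selected from the pool of both libraries and neighbouring peaks can share 1 replicate entry.

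**Figure D1:**
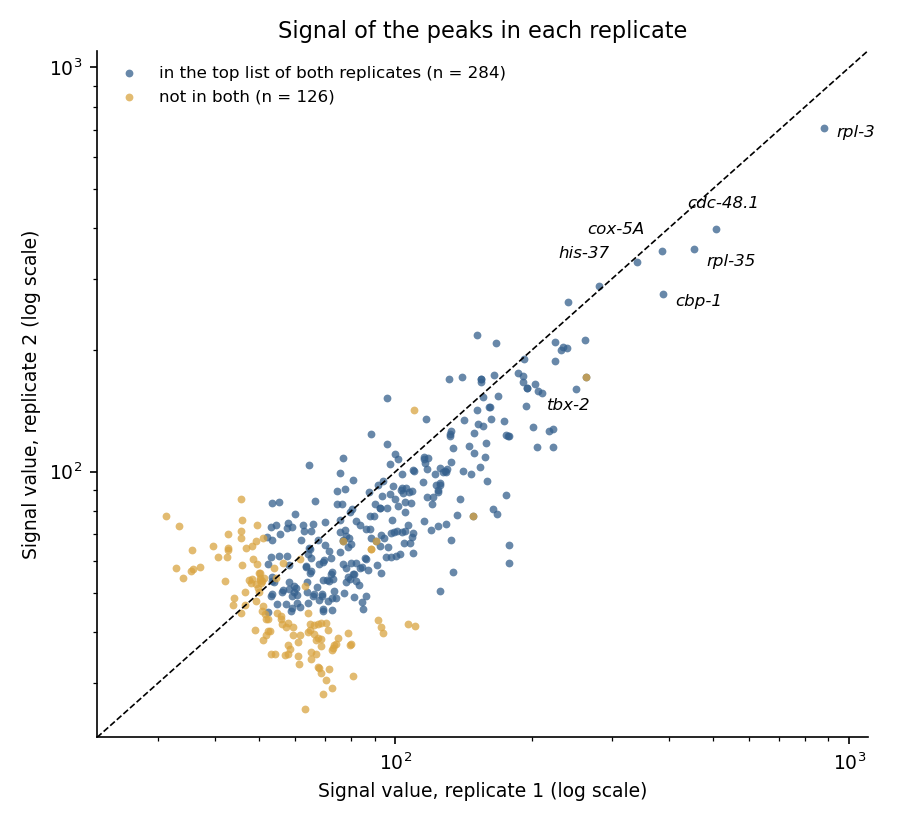
Each point is 1 of the peaks with an entry in both replicates, with its signal value in replicate 1 (x axis) and in replicate 2 (y axis), both on log scales, and the dashed line marks equal values. The 1 peak with no entry in replicate 1 is not drawn. Blue points, in the top list of both replicates, number 284, and rpl-3, with 881 and 707, stands apart from the rest at the upper right.

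Summits gathered between 100 and 300 bp upstream of the start. Of the 410, 381 (92.9%) lay upstream, and the median position was 260.5 bp upstream with quartiles at 461 and 134 bp. The fullest bins of 100 bp were those more than 200 and up to 300 bp upstream, with 81 summits, and more than 100 and up to 200 bp, with 73. The bin just upstream of the start held 54, that just downstream 17 and the next 12. Measured to the first codon of the gene instead of the transcript start, the median was 284 bp upstream.

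That gathering was set against the positions where a summit could have fallen. Single-gene promoter windows make up 24.0% of the autosomes, and after division by the bases available at each distance there were 49.8 peaks per Mb between 200 and 300 bp upstream, 43.6 between 100 and 200 bp and 9.42 in the first 100 bp of the gene. In the farthest 100 bp upstream there were 10.2 per Mb. The pooled list held 6582 entries at such positions, and 6.23% of them had passed the threshold. Between 200 and 300 bp upstream the share was 12.5%, in the first 100 bp of the gene 2.39%, and in the farthest 100 bp upstream 3.70%. Entries that missed the threshold had a median of 267 bp upstream, close to that of the peaks, but 21.3% of them lay from 0 to 200 bp downstream against 7.07% of the peaks.

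**Figure D2:**
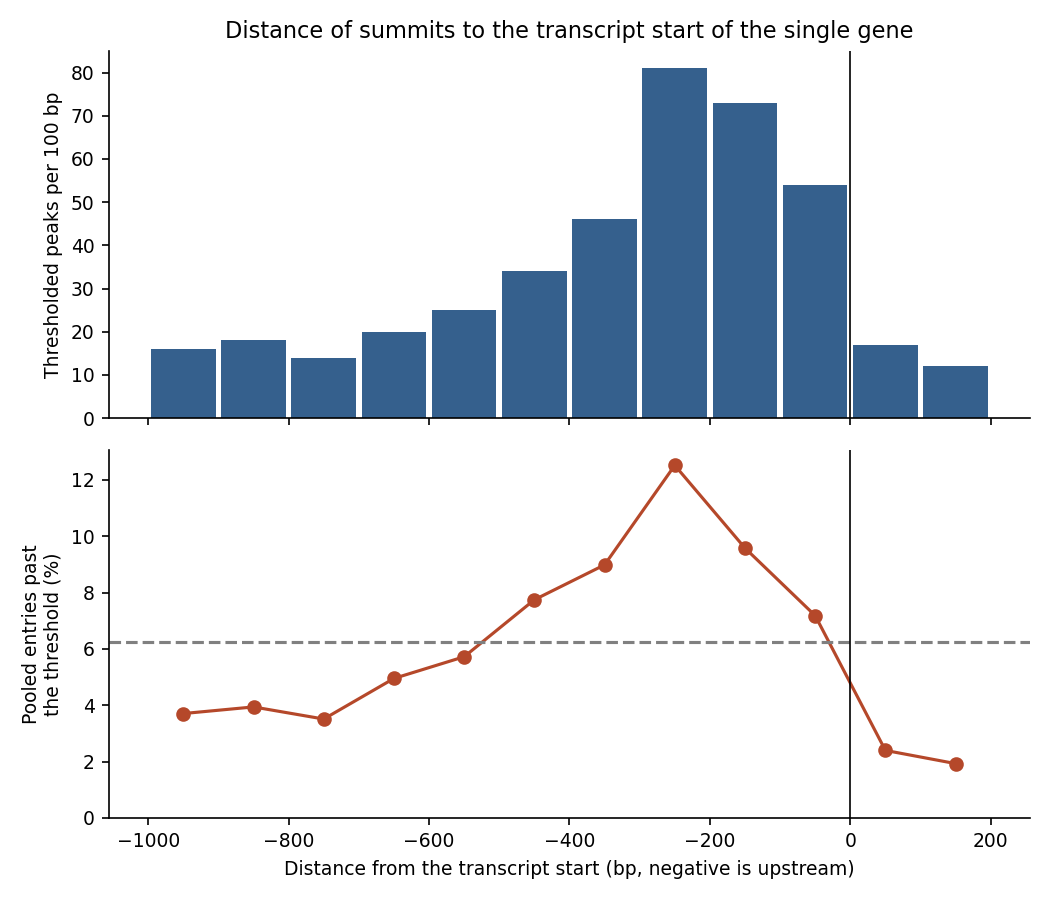
The upper panel counts thresholded peaks in bins of 100 bp by the distance of the summit to the transcript start (x axis, negative is upstream), and the lower panel gives the share of pooled entries in each bin that passed the threshold, with a dashed line at 6.23%. Counts are highest between 200 and 300 bp upstream, with 81 peaks, and the share is highest there too, at 12.5%.

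Median signal value changed little with distance upstream of the start and was lowest at or inside it. Its median in the pooled list was 129 beyond 500 bp upstream (93 peaks), 144 between 250 and 500 bp (121 peaks), 139.7 between 100 and 250 bp (113 peaks), 128 in the last 100 bp (54 peaks) and 112 at or inside the start (29 peaks). The Spearman rho of absolute distance with signal across peaks was 0.0269. It joins both sides of the start and can show only a steady rise or fall. The share found in the top list of both replicates was 63.4% in the farthest class, 75.2%, 73.5% and 64.8% in the next ones, and 55.2% at or inside the start.

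Far upstream, the strongest peaks after cbp-1 were those of zfp-1 and F08G2.5. At zfp-1, which codes for the worm AF10, a zinc finger protein of chromatin, the summit lay 751 bp upstream of one start and inside the gene itself. Its values were 367 for the pool, 151 in replicate 1 and 218 in replicate 2, so replicate 2 was higher. At F08G2.5, annotated with a WW domain, they were 366, 206 and 159 at 901 bp. Close to the start, the strongest after his-37 were tos-1 at 67 bp, with 431 for the pool, 263 in replicate 1 and 171 in replicate 2, and Y39B6A.43 at 15 bp, with 365, 191 and 173. Inside the gene, ints-4 was followed by tent-5, a poly(A) polymerase gene, at 98 bp with 337, 200.7 and 129, and by Y18D10A.4 at 8 bp with 266, 142 and 134.

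The limits of the window separated peaks of like strength. The farthest peak taken was a second one at zfp-1, exactly 1000 bp upstream, with a pooled signal value of 209, and just outside lay one 1001 bp upstream of vps-36 with 160.4 and one 1008 bp upstream of K11D2.4 with 274. On the downstream side the last peaks taken were at ssup-72, 192 bp inside, with 107, and at sms-3, 193 bp inside, with 103, and the first left out was 205 bp inside enee-1 with 142. The threshold of the list likewise fell between cacn-1 with 91.05, the weakest of the 410, and an entry at gasr-8 with 90.9.

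Most summits stood in DNA between coding genes, 307 of the 410. Another 86 lay inside their own gene, either past the start or upstream of an internal alternative start, 13 lay inside a different coding gene, and 4 inside both. The genes with a peak had a median of 1365 bp free of other coding genes on their upstream side, against 867 bp over all 16755 autosomal coding genes with single-gene promoter bases, of which 2.28% had a peak. Of genes with under 200 bp free, 1.23% had one (41 of 3327). With more space there was no steady rise: the share was 2.75% from 200 to 500 bp, 1.76% from 500 to 1000 bp, 2.66% from 1000 to 2000 bp, 2.95% from 2000 to 5000 bp and 2.75% beyond. The rule bears on this, since a near upstream neighbour that points the other way makes a promoter shared.

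Several summits can lie at 1 gene. A single peak was found at 357 genes, 2 at 22 genes and 3 at 3 genes. At nurf-1, a subunit gene of the chromatin remodeller NURF, the summits lay upstream of different starts along the gene, with pooled signal values of 209, 102 and 91.9. At hlh-30, the worm TFEB, which governs autophagy and lysosome genes, they had 112, 109 and 107. At W01D2.3, annotated as a receptor expression-enhancing protein, they had 139, 136 and 108, and the first and the last of these overlapped the same entry in each replicate, so they may be 1 site.

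Genes for cytoplasmic ribosomal proteins, the respiratory chain, ubiquitin handling and bZIP transcription factors carried such peaks at a higher rate than all genes. So did, at somewhat lower rates, the lists of mitochondrial import, DNA replication, nuclear pore and transport, chaperones and membrane traffic. Genes with symbols of chemoreceptors, C-type lectins and collagens carried few or none. Other lists of protein synthesis did not stand out: translation factors had 2 of 41 (0.596 to 16.5%), mitochondrial ribosomal proteins 2 of 70 and tRNA synthetases 0 of 31. Of 17242 autosomal protein-coding genes, 2.22% had a peak in a single-gene promoter, and 4.83% had one there or in a promoter shared with a neighbour. Families were defined by gene symbol, so that genes without a matching symbol are missed, 31 in all with 3865 autosomal genes, of which 89 had a peak (2.30%). The other 293 genes with a peak belong to no family listed. The counts are descriptions with exact 95% intervals that cover the number of genes only, and no enrichment test was run.

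Among cytoplasmic ribosomal proteins, 12 of 79 genes had a peak of their own, 15.2% (8.10 to 25.03%), and 42 of 79 (53.2%) had one when shared promoters were added. The 12 include rpl-24.2 by its symbol, although RefSeq annotates it as a ribosome biogenesis protein. After rpl-3, rpl-35 and rpl-24.2 came the small-subunit gene rps-24, with 187 for the pool, 115.5 in replicate 1 and 75.3 in replicate 2. Next was rpl-41.2 with 179.7, 109.4 and 70.5. The others were rps-4, rpl-6, rpl-38, rpl-14, rps-17, rpl-32 and rps-21, from 97.1 to 135 in the pooled list. All 12 summits lay upstream, from 137 to 454 bp, with a median of 290 bp. The weakest, at rps-17, rpl-32 and rps-21, were not in the top list of both replicates.

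Mitochondrial energy genes formed the next group. Of 48 genes of the respiratory chain and ATP synthase, 7 had a peak, 14.6% (6.07 to 27.8%), and without replicate 2 the count was 4. After cox-5A the strongest were cox-5B, a further cytochrome c oxidase subunit, with 257 for the pool, 154 in replicate 1 and 103 in replicate 2, cyc-1, the cytochrome c1 gene, with 185, 91.7 and 92.8, and nduf-11 of complex I with 185, 99.7 and 85.6. The complex I genes nduf-9, nuo-2 and nduf-7 had 113, 107 and 101.5 in the pooled list, and none of these last was in the top list of both replicates. A microRNA gene lies within 200 bp of the summit at nduf-9. Of 26 genes of mitochondrial import and shape, 3 had a peak, 11.5% (2.45 to 30.2%). They were tomm-20 with 328, timm-17B.1 with 138 and tin-9.1 with 119.8, all parts of the import machinery and all in both replicates. Mitochondrial ribosomal proteins, with 2 of 70 (mrpl-28 and mrpl-55), were near the background, and the TCA cycle and fuel list had 2 of 42, dld-1 and cts-1, or 4 without either replicate.

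In protein turnover and folding, the ubiquitin and cullin list had 8 of 64 genes, 12.5% (5.55 to 23.2%). They were the deubiquitinase genes otub-2, with a pooled signal value of 260.1, and usp-4 with 192, the conjugating enzyme genes ubc-3, ubc-25 and ubc-7 with 178, 139 and 93.9, ubl-5 with 115.1, the polyubiquitin gene ubq-1 with 98.8 and the activating enzyme gene uba-1 with 95. Summits at 6 of these 8 genes lay from 218 to 306 bp upstream. The list leaves out wwp-1 with 367 and eel-1 with 317, which RefSeq annotates as ubiquitin ligases. Both had stronger peaks than all 8. Chaperones and co-chaperones had 7 of 93, 7.53% (3.08 to 14.9%), and 24 of 93 with shared promoters added. After dnj-9 and hsp-1 came bag-1, a nucleotide exchange factor of HSP70, with 206 for the pool, 117 in replicate 1 and 86.3 in replicate 2, and crt-1, the calreticulin of the endoplasmic reticulum, with 191, 134 and 56.3. All 7 were in the top list of both replicates. Proteasome subunits had 1 of 35, rpn-11 with 148.

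Transcription factor families differed. Of 25 bZIP genes, 6 had a peak, 24.0% (9.36 to 45.1%), and shared promoters added no further gene. They were zip-2, which acts in the response to pathogens, with 239 for the pool, 141 in replicate 1 and 100.5 in replicate 2, the CREB relative crh-2 with 190.5, 103.7 and 88.7, then zip-4 with 125, jun-1 with 124, zip-11 with 108 and xbp-1, a factor of the unfolded protein response, with 102. With 1 start per gene, the most upstream, 3 bZIP genes were left. The bHLH list had 2 of 29, hlh-11 with 211 and hlh-30, and the list of GATA, forkhead, SOX, ETS and T-box factors had 3 of 41: tbx-2, fkh-7 with 172 and daf-16, the FoxO factor of insulin signalling, with 106. Nuclear hormone receptors had 2 of 247, nhr-49 with 152 and nhr-43 with 126, and homeobox factors 1 of 67, ceh-20 with 93.9, a cofactor of Hox proteins.

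Other lists of housekeeping functions ran from 1.49% to 11.4% of their genes, against 2.22% over all genes. DNA replication had 4 of 35 genes, 11.4% (3.20 to 26.7%). They were pcn-1, rpa-2 with a pooled signal value of 237, mcm-4 with 132 and psf-3 with 120.0. Nuclear pore and transport had 4 of 40, 10.0% (2.79 to 23.7%), with imb-3 at 227, ima-2 at 177, npp-8 at 166 and npp-20 at 101.01, all in both replicates. Membrane traffic had 7 of 114, 6.14% (2.50 to 12.2%). It was led by the ESCRT genes vps-4 with 260.1 and vps-25 with 202 and by sar-1, the COPII GTPase, with 215. Actin, tubulin and motor proteins had 4 of 66, at tba-2, act-2, dyci-1 and tbb-2, from 92.4 to 209. Of these peaks 1, at tba-2, was in the top list of both replicates, and without either replicate the count was 2. The translation factors were eif-3.C and eif-3.B. Splicing (mog-4 and snrp-3) had 2 of 65, and the list of cyclins and cell cycle kinases (cdk-7, and mdf-1, which is neither) 2 of 28. The vacuolar ATPase (vha-13) had 1 of 17, and RNA polymerases, TAFs and mediator (taf-12) 1 of 67. Leaving out a replicate moved the last 3 of these counts by 1 gene in at least 1 case. The splicing list, made by symbol, leaves out further splicing genes with a peak, among them smu-1 with 281, plrg-1 and ddx-23. It thus counts splicing genes only in part.

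By symbol, large families of environment-facing genes had few such peaks. Of 1331 chemoreceptor genes 2 had a peak, srh-2 with 174 and srbc-58 with 102, which is 0.150% (0.0182 to 0.542%). The symbol list misses D2023.1, which RefSeq annotates as a serpentine receptor and which had a stronger peak, with 224. The F-box, BTB, MATH and BATH list had 1 of 395, fbxb-72 with 271. It leaves out members that RefSeq annotates with F-box, BTB or MATH domains under other names. Among these, fbxl-2 with 345 and T28B11.1 with 307 were stronger than fbxb-72. Weaker were pqn-87 with 169, kel-3 with 145, fbxl-1 with 105 and btbd-10 with 94.1. F48A11.4, with an F-box associated domain, had 307. The list thus counts this family, its genes and its peaks, only in part. The list of P450, UGT and GST enzymes had 1 of 174, gst-9 with 109. No peak of this kind was found at 237 C-type lectin, 145 cuticle collagen, 108 neuropeptide, 31 tRNA synthetase or 29 Argonaute and small RNA genes of the lists, for which the exact intervals reach up to 1.54%, 2.51%, 3.36%, 11.2% and 11.9%. The small RNA list leaves out ego-1, an RNA-dependent RNA polymerase gene of that pathway, with 172, and gtsf-1 with 129, which both had a peak. Histones had 2 of 76, his-37 and the H3.3 gene his-72 with 108.

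**Figure D3:**
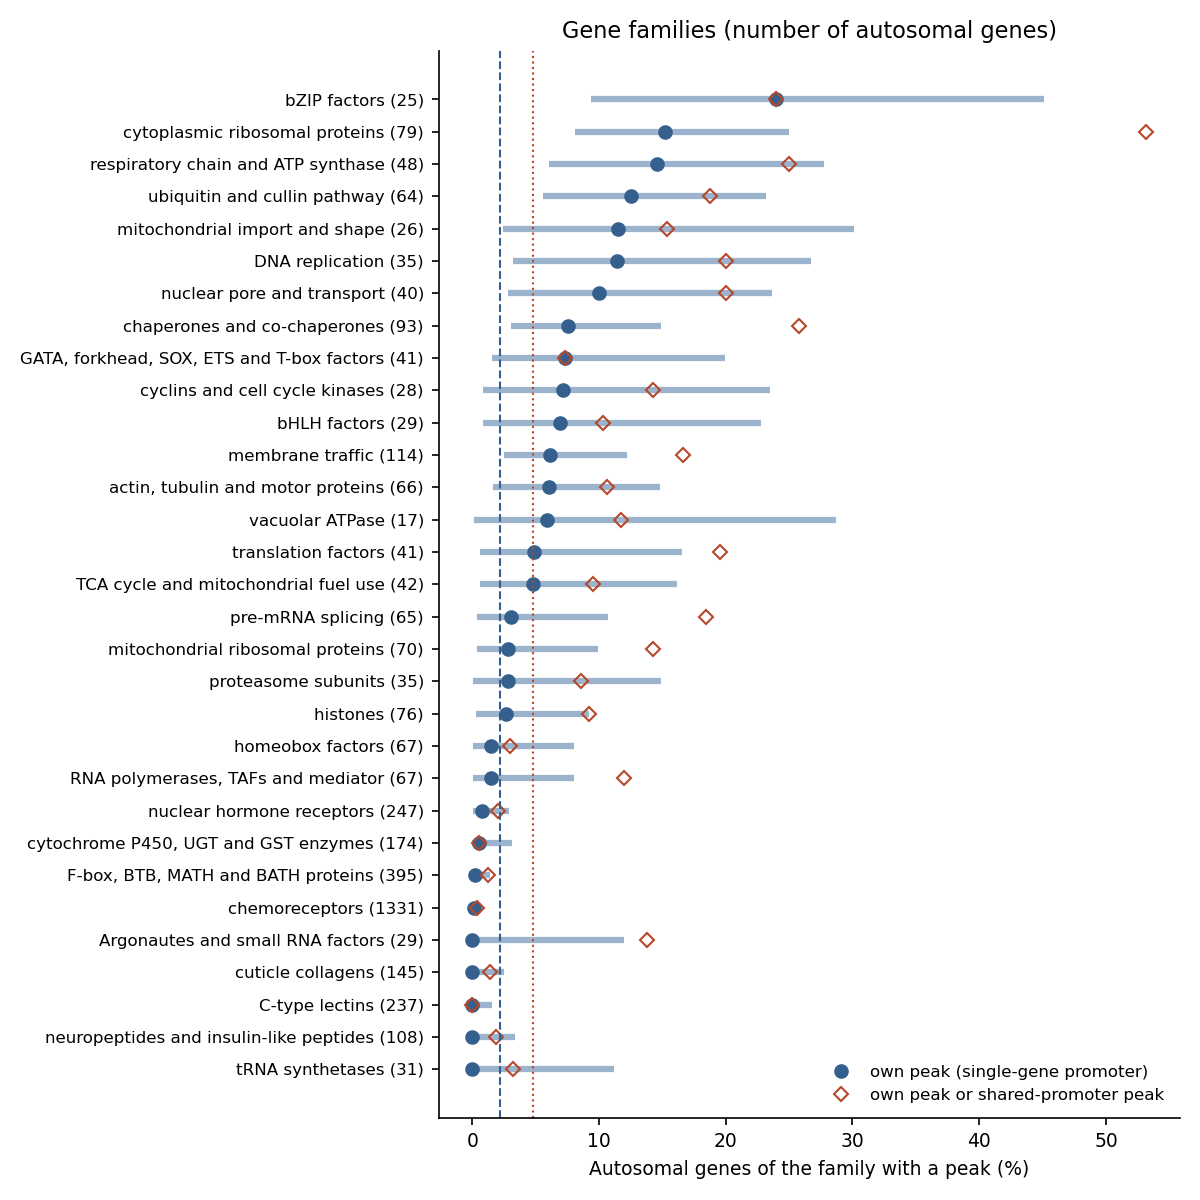
Each row is a gene family with its number of autosomal genes, and the x axis gives the percentage with a peak. Filled circles with bars (exact 95% intervals) count peaks in single-gene promoters, open diamonds add shared promoters, and the dashed and dotted lines mark the shares over all autosomal coding genes, 2.22% and 4.83%. Ribosomal proteins go from 15.2% to 53.2% when shared promoters are added, while bZIP factors stay at 24.0%.

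The lists of tissue markers are too short to read a rate from, at a background of 2.22%. No peak was found at the 4 pharyngeal muscle, 5 body wall muscle, 3 intestinal or 2 epidermal genes of short autosomal lists. Of 10 neuronal genes, 3 had one, the synaptic vesicle GTPase rab-3 with a pooled signal value of 129, rgef-1 with 116.02 and the neuropeptide processing enzyme egl-21 with 102. Of 5 germline genes cgh-1 had one, with 119.5. Outside the lists, phm-2, which RefSeq names as a pharyngeal muscle protein, had a peak with 299 for the pool, 131 in replicate 1 and 169 in replicate 2. This gene was picked by its name after its value was seen, so it does not bear on the pharyngeal list.

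The T-box core was about as frequent at these peaks as at weaker entries in the same kind of promoter. Of the 410 windows around a summit, with 100 bp on either side, 29 held GGTGTG on either strand, 7.07% (exact 95% interval 4.79 to 10.0%). Entries below the threshold held it in 5.90% (364 of 6172), and windows of that length tiled over all single-gene promoter bases in 4.68% (4614 of 98513). The longer GGTGTGA was in 3 windows, 0.732%, against 1.51% and 1.41%. By signal, the core was in 10 of the 103 strongest peaks, 9 and 7 of the 102 in each of the groups between, and 3 of the 103 weakest. The median pooled signal value was 162 at peaks with the core and 134 at those without. Of those with it 86.2% were in the top list of both replicates, against 68.0% of those without. None of the 20 strongest peaks in both replicates held one, but 20 peaks are too few to set against a share of 7.07%.

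Other sites of the list were spread unevenly. The GA repeat GAGAGA was in 40.5% of windows (166 of 410), against 19.7% of the entries below the threshold and 11.4% of the tiled windows. The SP1-like site GGGCGG was in 11.5% of the windows at peaks, in 432 of 6172 below the threshold and in 3.79% of the tiled ones. Sites rich in A and T were less frequent at the peaks: TATAAA in 13.4% against 22.1% and 22.9%, and CCAAT in 24.9% against 35.3% and 36.2%. The E-box CANNTG was in 53.4%, 54.6% and 53.6%. The GATA site AGATAA was in 8.29% of windows at peaks and 11.2% at entries below the threshold. The NK-2 site CACTTAA was in 1.22% against 1.57%, and the forkhead site TGTTTAC in 1.22% against 2.33%. Sites of bZIP factors were as rare: TGACTCA was in 1.46% against 1.83%, and the longer TGACGTCA was in 2.20% against 1.38%. Base composition moved with these values: the median share of G and C was 44.8% in the windows at peaks, 37.8% at entries below the threshold and 34.8% in tiled windows. Windows were then split into those poorer and those richer in G and C than 44.8%. The SP1-like site was in 4% of peaks against 4.44% of entries below the threshold in the poorer windows, and in 18.6% against 15.9% in the richer ones. In the same order the T-box core was in 5% against 4.86% and in 9.05% against 9.50%. CCAAT stayed lower at the peaks in both groups, with 28.5% against 36.1% and 21.4% against 32.6%. So did TATAAA, with 21.5% against 26.3% and 5.71% against 7.25%.

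Several words of 7 letters recurred at the peaks. They were picked by ranking all words in these same windows against the entries below the threshold, so their shares here are descriptions. Word A, GAGACGC, was in 90 windows, 21.95%, against 5.28% of entries below the threshold and 2.00% of tiled windows. Its continuation CTGCGTC on the other strand, which overlaps word A in the stretch GAGACGCAG, was in 81, and 71 windows held both. Word B, CTGGCGC or CTGACGC, was in 63 windows, 15.4%, against 2.25% of entries below the threshold. Word C, GAAACGC, was in 43, 10.5%, against 1.86%. At least 1 of the words A, B and C was in 152 windows, 37.1%.

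Windows were also split by base composition, on the same contrast that picked the words, so the split adds no support for them. Among windows below 44.8% G and C, word A was in 14% of 200 peaks and 3.86% of 4793 entries below the threshold, and among the others in 29.5% of 210 and 10.2% of 1379. CTGGCGC, the more frequent form of word B, was in 12.5% against 0.960% in the windows poorer in G and C, and in 7.14% against 2.61% in the richer ones. GAGAGA, in contrast, was in 20.5% against 17.5% in the poorer windows and in 59.5% against 27.5% in the richer ones.

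Word B went with strong peaks and stood close to the summit, in the same windows that picked it. The contrast that picked it set stronger against weaker entries, so these values are descriptions and add no support for the word. The median signal value of the 63 peaks with it was 200.5 for the pool, 116.1 in replicate 1 and 92.8 in replicate 2, and that of the 258 peaks with none of the 3 words was 129.7, 73.1 and 63.0. It was in 31 of the 103 strongest peaks (30.1%), in 15 and 11 of the 102 in each of the groups between and in 6 of the 103 weakest (5.83%). Its nearest match had its centre a median of 14 bp from the summit, and 45 of 63 were within 25 bp, against 36 bp and 40.3% at entries below the threshold. At C34C12.8, printed above, CTGGCGC occurred at 11 and again at 32 bp downstream. The 20 peaks that held both word B and word C were all in the top list of both replicates, with a median pooled signal value of 236.

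Word A showed neither pattern. The median pooled signal value of its 90 peaks was 139, and it was in 18, 29, 18 and 25 peaks in the same groups from strongest to weakest. Its nearest match was a median of 41 bp from the summit, and 37.8% were within 25 bp, against 41.4% at entries below the threshold. Of the 90 peaks 57 also held GAGAGA (63.3%), against 35.3% of the peaks with none of the 3 words. Examples are zfp-1, with GCGTCTC 45 bp downstream of the summit, and Y39B6A.43, with GAGACGC 14 bp upstream. The precision of summits differed between these sets: 63.7% of all 410 entries have the fixed width of 420 bp with the summit at the middle, as did 46.0% of those with word B and 67.1% of those with none of the words. The part of this in the distances was not tested.

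Most peaks of ribosomal protein genes held none of the words. At rpl-3, rpl-35 and rps-24 no match to word A, B or C lay within the window. Among the 12 peaks of that family, rpl-41.2 had word A and rpl-24.2 word B. Each of the import genes tomm-20, timm-17B.1 and tin-9.1 had word B. Of the 7 respiratory peaks, cyc-1 and nduf-7 had word B, and cyc-1, nduf-11 and nuo-2 had word C. Words were also found at dnj-9 (B and C), pcn-1 (B), eif-3.C (B and C) and vps-4 (B and C), and none was found at cdc-48.1, cox-5A or hsp-1.

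**Figure D4:**
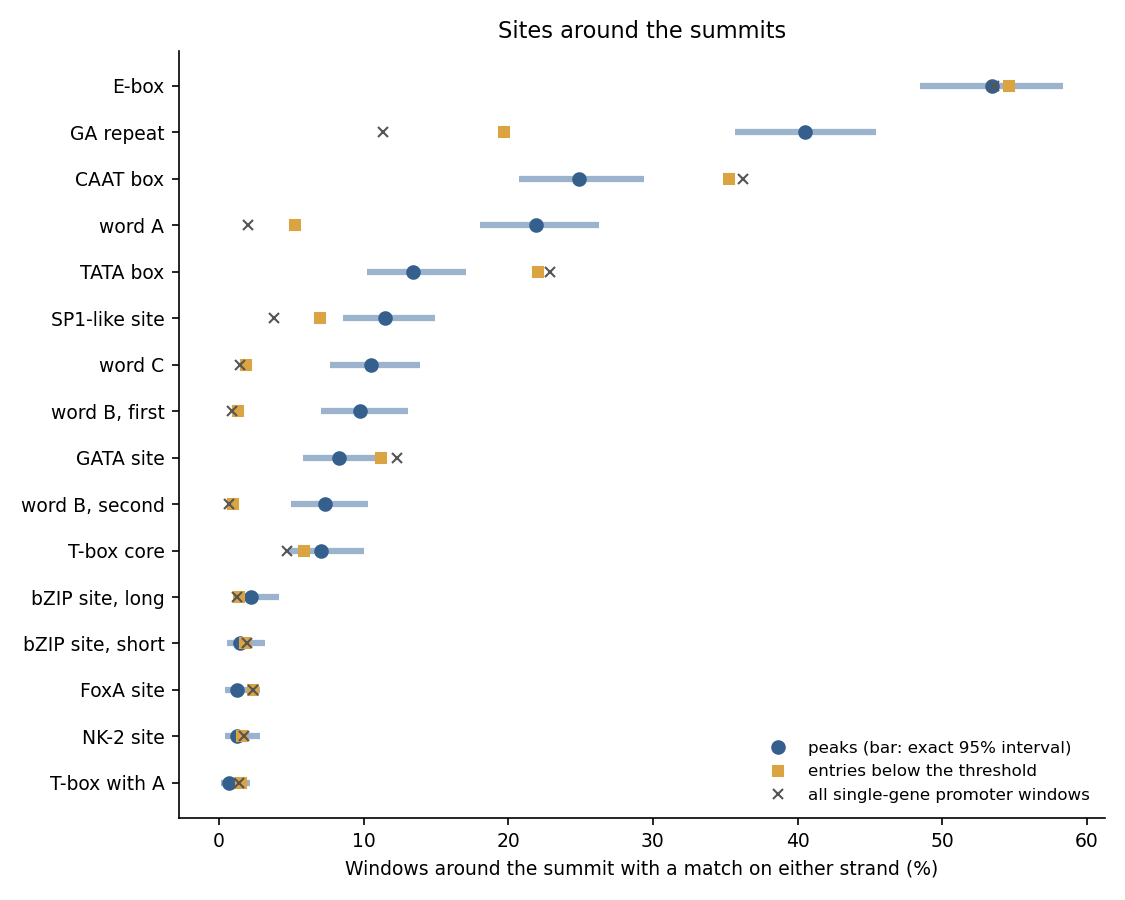
Each row is a site, and the x axis gives the percentage of windows around the summit with a match on either strand. Circles with bars (exact 95% intervals) are the 410 peaks, squares the 6172 entries below the threshold at the same kind of position, and crosses tiled windows over all single-gene promoters, and word B is split into its forms CTGGCGC (first) and CTGACGC (second). The T-box core is at 7.07%, 5.90% and 4.68%, and word A at 21.95%, 5.28% and 2.00%. Words A, B and C were picked in these windows against the entries below the threshold. Their spread follows from that choice and cannot be set against that of the other sites.

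The words were then counted in peaks of the other classes, whose windows had not been used to pick them, apart from overlaps between neighbouring windows. Word B was in 25.1% of the 219 autosomal peaks in shared promoters (exact 95% interval 19.5 to 31.4%), against 3.97% of entries below the threshold there. It was in 3.17% of the 189 in gene bodies away from promoters (1.17 to 6.78%) and in 2.83% of the 247 distal intergenic ones (1.15 to 5.75%). The 15.4% of single-gene promoters comes from the windows that picked the word and cannot be set against these. Word A had another order, with 23.9% of distal intergenic peaks, 19.05% of those in gene bodies and 13.7% of those in shared promoters. On chromosome X word A was in 11.4% against 2.37% of entries below the threshold and word B in 7.77% against 2.59%. Near small RNA genes the shares were closer, 5.70% against 2.97% for word A and 4.43% against 4.15% for word B, and so they were for word B in gene bodies, 3.17% against 1.87%, and in distal DNA, 2.83% against 1.90%. The T-box core was in 5.48%, 7.94% and 7.69% of the peaks in shared promoters, gene bodies and distal DNA.

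In strength, peaks in single-gene promoters were like those in gene bodies and distal DNA, and weaker at the median than those in shared promoters. In position on the chromosome they were near the other autosomal classes. Their median pooled signal value of 136 compares with 164 in shared promoters, 129 in gene bodies and 129.8 in distal DNA. The share in the top list of both replicates was 74.4%, 61.4% and 68.4% in those classes, against 69.3%. In the central 50% of their chromosomes lay 63.9% of the 410 summits, against 58.4%, 66.7% and 63.97%. Over the 5 autosomes the share of coding genes with a peak ran from 3.16% on chromosome I (91 of 2878) to 1.48% on chromosome V (74 of 4994), and chromosome V had the highest share of its peaks in the centre, 80.5%.

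**Figure D5:**
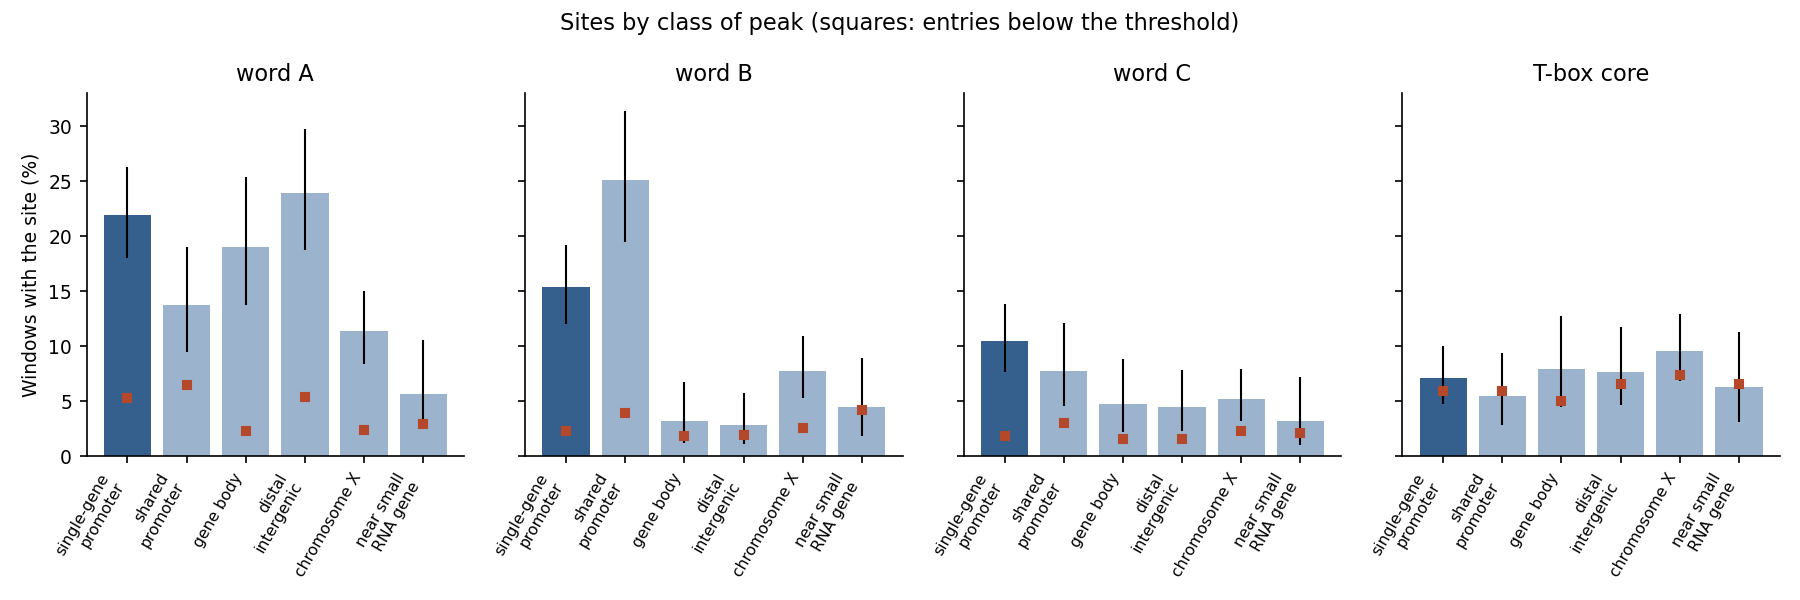
Bars give the percentage of thresholded peaks with each site (panels) by class of peak (x axis), with exact 95% intervals, and squares give the same for entries below the threshold. Word B stands at 15.4% in single-gene and 25.1% in shared promoters and at 3.17% and 2.83% in gene bodies and distal DNA, whereas word A reaches 23.9% in distal DNA. The words were picked in the single-gene windows, so the bars of that class are not comparable with the others.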

How the data were processed

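The members and lists were chosen with earlier results of these data known. The values used are deposited peak lists on build ce11. Per the deposited file listing, the authors ranked peaks together with background in each replicate and in the pool (28366, 30000 and 30000 entries) and a list thresholded by IDR from them. The peak caller is not given in the sources used here, nor the aligner. The signal value per entry is the authors' own and was not rescaled. The deposited −log10 q-value was 2.76 in every thresholded entry and was not used. The ce10 lists were not used. Annotation was Ensembl release 115 (WBcel235). Intervals are exact Clopper-Pearson and cover counting of peaks or genes only. Python 3.11.15, pandas 2.3.3 and scipy 1.17.1 were used, and the assignment to classes was tested on simulated data. Replicate values are those of the strongest overlapping entry. Words were ranked by the difference of the shares over the square root of the share below the threshold plus 0.2%, for 1921 words in at least 12 peaks. Named were the 20 strongest peaks in both replicates, the 3 strongest per distance class, up to 4 genes per family, genes with 3 peaks, peaks nearest the limits, and tbx-2. Further members and word examples were named after their values were seen. A peak of the 20 and 2 sequences are not reported here.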

Additional observations from a re-analysis of the deposited data

How the results depend on the processing

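No paired analysis was possible because there is 1 group and no test. Of 62 values under the alternatives (window limits, distance to small RNA genes, list, starts, replicates, tolerance, site window), 47 stayed within 1.5 times the count, the exact interval or the spread between replicates. The stronger 815 of the thresholded entries left 194 peaks at 187 genes, with a median signal value of 208, 96.9% in both replicates and a median distance of -272.5 bp. The median distance was -191 bp with an upstream limit of 500 bp, -429 bp with 2000 bp, -282 bp with no downstream part and -272.5 bp with no small RNA exclusion. With the top list of 1 replicate alone it was -260 to -268 bp, with at least 398 peaks, 373 to 381 genes and a median signal value of 66.0 to 77.9 on that replicate's own scale. The share in both replicates was 59.5% with summits within 50 bp. The T-box core was in 4.39% of windows with 50 bp on either side and 11.5% with 200 bp. Of 310 family counts 248 stayed within 1.5 times. Taking 1 entry per interval could change neither these counts nor the 62 values, as no peak's interval is repeated. Families that had no peak and stayed without one also count among the 248. With an upstream limit of 2000 bp ribosomal proteins had 7 genes (the cause was not tested), and without replicate 2 respiratory genes had 4. Unknown read depth limits every value.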

Other observations

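The longer T-box site GGTGTGA lay in the windows of 3 peaks, 0.732%, against 1.51% of entries below the threshold and 1.41% of tiled windows. The strongest of the 3 peaks was at lgg-2, an Atg8 family gene of autophagy. It scored 299.7 for the pool, 161 in replicate 1 and 145 in replicate 2, with its summit 318 bp upstream. At scpl-3, a phosphatase gene, the values were 231, 146 and 98.7, and at T19C4.24, which has no named product, 128, 59.1 and 73.0. All 3 peaks were in the top list of both replicates.

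Some of the 410 summits also lay near noncoding genes that the rule did not consider. Within 200 bp of the summit there was an annotated ncRNA gene in 66 cases, a microRNA gene in 2 (at nduf-9 and nurf-1), a piRNA gene in 2 and a lincRNA gene in 2. These counts have no share over other entries beside them, so they cannot be read as many or few. A peak at such a place cannot be given to the coding gene alone. Of the 382 genes, 102 have only a sequence name in the annotation.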
